A study of Mus musculus with 31 samples.

Results

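The mitochondrially encoded genes are the genes of the mitochondrial chromosome, taken here as every gene of the count table whose symbol starts with mt-. There were 37 such genes among the 39017 of the table, of which 13 encode proteins, 2 encode ribosomal RNAs (rRNAs) and 22 encode transfer RNAs (tRNAs). They were followed in bulk RNA sequencing of 31 libraries from mouse breast tumours of 2 models, titled 4T1 and MT, grown orthotopically in syngeneic mice. 4T1 is a mammary carcinoma line, and its tumours were grown in BALBc mice per the series design, while MT tumours were grown in FVB mice. In each model the control arm received saline with PBS, the phenformin arm saline with phenformin, the poly I:C arm poly I:C with PBS, and the combination arm poly I:C with phenformin. Phenformin, a biguanide, blocks complex I of the respiratory chain. Poly I:C mimics viral double-stranded RNA and is sensed by Toll-like receptor 3. Each group had 4 libraries, except 4T1 phenformin with 3 (numbered 1, 2 and 4). All libraries carry the genotype tag WT, and the ages of the mice are not given in the sources used here. The strain and cell line tags name the opposite model to the titles, so groups are called by their titles. Nothing in the labels says which libraries came from separate animals, so p-values measure the spread between these libraries only. Total counts per library ranged from 12160110 to 19849915.

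Mitochondrial DNA is a small circle that is transcribed from both strands into long RNAs spanning many genes. Most messenger RNAs and rRNAs in these long RNAs are flanked by tRNAs, and cutting out the tRNAs releases them. The protein-coding members are all subunits of the respiratory chain and the ATP synthase: 7 belong to complex I (the NADH dehydrogenase that phenformin inhibits), 1 to complex III, 3 to complex IV and 2 to complex V. All other subunits, and the polymerase, ribosomal proteins and nucleases that express mitochondrial DNA, are encoded in the nucleus. In the GRCm38 annotation (GENCODE M21, which held all 37 identifiers), 28 members lie on the plus strand, and mt-Nd6 and 8 tRNAs lie on the minus strand. The libraries were strand-specific and made from polyadenylated RNA. The strand setting of the authors' counting is not stated, so reads of a minus-strand member and reads from the opposite strand of the same stretch may not have been told apart.

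A run of the genome was almost uncounted, and the sequences shown here concern which members could be measured. mt-Ts1, mt-Td, mt-Co2, mt-Tk, mt-Atp8, mt-Atp6, mt-Co3 and mt-Tg, which lie one after another on mitochondrial chromosome positions 6870 to 9458, had between 0 and 2 counts in each of the 31 libraries. Among them are 4 of the 13 protein-coding members: mt-Co2 and mt-Co3, which are core subunits of cytochrome c oxidase, and mt-Atp6 and mt-Atp8, which are subunits of the ATP synthase. The next member, mt-Nd3, had 44 to 302 counts per library and mt-Tr after it 4 to 73, whereas mt-Co1 before the run had 29004 to 262939 and mt-Nd4l behind it 1559 to 34929. Nuclear chromosome 1 carries a run of annotated pseudogenes on its minus strand, between 24611535 and 24616197, that match this stretch. mt-Co2 matched Gm28661 over 681 bases, mt-Atp6 matched Gm10925 over 678 bases and mt-Co3 matched Gm28437 over 783 bases, each with 0 mismatches. mt-Nd3 matched Gm28438 over 345 bases with 1 mismatch, which is shown in capitals. The first bases of each gene are printed with those of its nuclear match, 5′ to 3′ in the direction of the mitochondrial gene, from the GENCODE M21 transcripts of GRCm38, at chrM:9459-9518, chrM:8607-8666 and chrM:9877-9936 and on chromosome 1 at chr1:24613060-24613119, chr1:24613912-24613971 and chr1:24612641-24612700.
mt-Nd3: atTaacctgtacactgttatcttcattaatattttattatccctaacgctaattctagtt
Gm28438: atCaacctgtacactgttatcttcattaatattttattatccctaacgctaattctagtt
mt-Co3: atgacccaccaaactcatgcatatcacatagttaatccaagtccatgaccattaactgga
Gm28437: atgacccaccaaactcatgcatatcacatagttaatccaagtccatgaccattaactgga
mt-Nd4l: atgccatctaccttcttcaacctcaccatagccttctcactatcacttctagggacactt
Gm10222: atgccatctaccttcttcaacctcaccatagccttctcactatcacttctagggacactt
The pair of mt-Nd4l and Gm10222 is shown because here a match over 294 bases with 0 mismatches did not go with missing counts. mt-Nd4l had at least 1559 counts in each library, while Gm10222 had 0 to 21 counts per library. The copies Gm28661, Gm10925, Gm28437 and Gm28438 are not among the genes counted, so reads at them could not be compared. Of all 50-base windows of a member, the share that also occurs unchanged in a nuclear transcript was 100% for mt-Co2, 99.9% for mt-Co3, 99.5% for mt-Atp6, 98.8% for mt-Nd4l, 98.0% for mt-Nd3, 62.2% for mt-Nd4 and 51.1% for mt-Co1. It was 8.19% for mt-Nd2, 7.61% for mt-Nd5, 1.04% for mt-Rnr2 and 0% for mt-Nd1, mt-Nd6, mt-Cytb, mt-Rnr1, mt-Atp8 and the tRNAs. Only annotated transcripts were searched, not the stretches between them. A share of 0% therefore does not show that a member lacks a copy in the nuclear genome. The levels of mt-Nd3, mt-Nd4l, mt-Nd4 and mt-Co1 are therefore uncertain, because the authors' counting could have split or dropped reads that fit more than 1 place. How such reads were treated is not stated, and its part in the uncounted run was not tested.

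**Figure D1:**
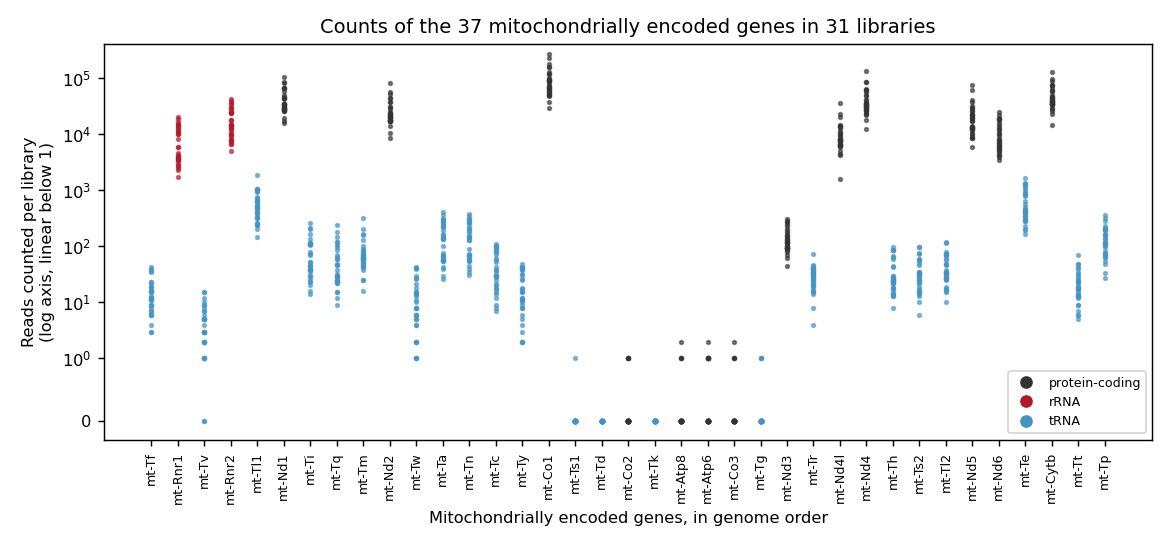
Reads counted per library (vertical axis, logarithmic and linear below 1) for the 37 mitochondrially encoded genes in genome order, with 1 point per library. The 8 genes from mt-Ts1 to mt-Tg lie at 0 to 2 counts in every library, between mt-Co1 and mt-Nd3.

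Neighbouring members also overlap, which limits how far single genes can be separated. The start of mt-Atp6 lies inside the end of mt-Atp8, and the end of mt-Nd4l lies inside the start of mt-Nd4, as printed here from chrM:7927-7975 and chrM:10152-10188 on the plus strand. In the first sequence the capitals mark the first codon of mt-Atp6 and the last codon of mt-Atp8, which share 43 bases, and in the second they mark the 7 shared bases.
mt-Atp8 and mt-Atp6: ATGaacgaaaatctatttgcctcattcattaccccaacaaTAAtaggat
mt-Nd4l and mt-Nd4: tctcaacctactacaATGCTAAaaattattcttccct
mt-Nd5 and mt-Nd6 share 14 bases on opposite strands, and mt-Ti and mt-Tq share 3 on opposite strands. mt-Ti also shares 2 bases with mt-Nd1 on the same strand.

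Reads counted to mt- genes made up 0.784% to 1.79% of the total counts in the 15 libraries titled 4T1 and 0.697% to 6.13% in the 16 titled MT. Group means were 1.25% ± 0.372 (SD, n = 4) in 4T1 control, 1.44% ± 0.297 (SD, n = 3) in 4T1 phenformin, 1.20% ± 0.421 (SD, n = 4) in 4T1 poly I:C and 1.32% ± 0.0730 (SD, n = 4) in 4T1 combination. They were 2.37% ± 0.714 (SD, n = 4) in MT control, 3.92% ± 1.84 (SD, n = 4) in MT phenformin, 2.38% ± 1.41 (SD, n = 4) in MT poly I:C and 2.10% ± 1.01 (SD, n = 4) in MT combination. The 4 groups of 4T1 overlapped each other, and so did the 4 groups of MT. In MT the highest library exceeded the lowest 2.19-fold in the control arm, 3.76-fold in the phenformin arm, 2.80-fold in the poly I:C arm and 4.35-fold in the combination arm. In 4T1 these were 1.88-fold, 1.48-fold, 2.17-fold and 1.12-fold, so the models were closer in the control and poly I:C arms than in the other two. In bulk samples, fewer cells of a type and less RNA per cell cannot be told apart.

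**Figure D2:**
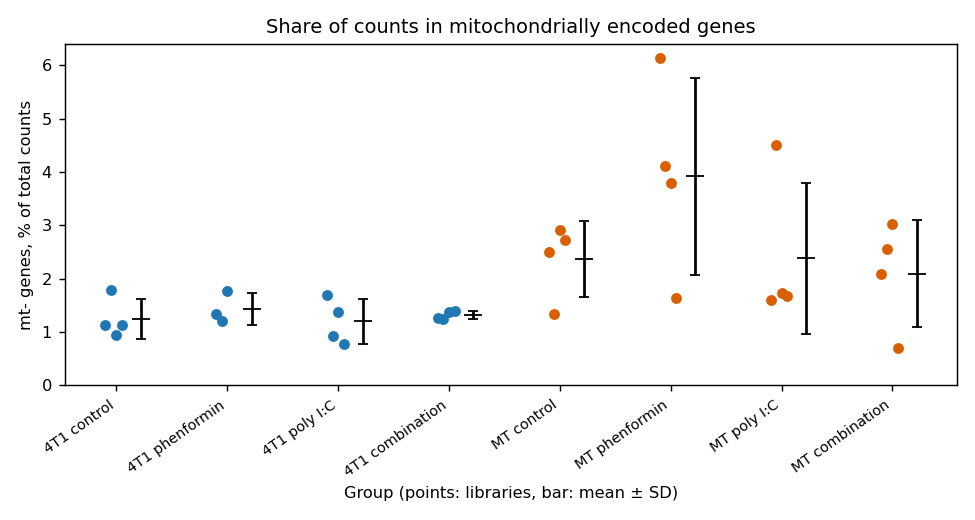
Percent of the total counts in mt- genes (vertical axis) for each library by group, with the mean ± SD as a bar. MT phenformin replicate 1 stands highest at 6.13% and MT combination replicate 4 lowest at 0.697%.

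Levels of different members were compared as CPM (read counts scaled to library size, with TMM factors) divided by gene length in kilobases. Over all 31 libraries mt-Co1, the catalytic core of cytochrome c oxidase, stood highest at 3781 ± 2409 CPM per kb (SD). mt-Nd1, a complex I subunit close to the ubiquinone site, followed at 2703 ± 1540.0 CPM per kb, and mt-Cytb, the cytochrome b of complex III, at 2634 ± 1453 CPM per kb. mt-Nd4l, mt-Nd4 and mt-Nd2, membrane-arm subunits of complex I, had 2085 ± 1493, 1885 ± 1221 and 1615 ± 1015 CPM per kb. mt-Nd6, the only protein-coding member of the minus strand, had 1230.0 ± 769.5 CPM per kb. mt-Nd5, the outermost proton-pumping subunit of complex I, had 737.5 ± 559.8 CPM per kb, and mt-Nd3 had 24.97 ± 12.86. mt-Rnr2, the 16S rRNA of the mitochondrial large ribosomal subunit, had 709.3 ± 451.8 CPM per kb and mt-Rnr1, the 12S rRNA of the small subunit, 529.6 ± 388.1. Ordered by level, each neighbouring pair lies within 1 SD of each other, except the step from mt-Rnr1 down to mt-Nd3, which is among the members with an uncertain level. The order was not the same in both models: in the libraries titled 4T1 mt-Cytb (1956 ± 428 CPM per kb) stood above mt-Nd1 (1836 ± 440.0), and in those titled MT mt-Nd1 (3516 ± 1763) stood above mt-Cytb (3271 ± 1777), and neither gap exceeds the SD. Among the tRNAs, mt-Tl1 and mt-Te had the highest counts, with 145 to 1830 counts per library for mt-Tl1 and 162 to 1637 for mt-Te. mt-Tl1, a leucine tRNA of 75 bases, lies between mt-Rnr2 and mt-Nd1 at chrM:2676-2750, and mt-Te, a glutamate tRNA of 69 bases, lies on the minus strand at chrM:14071-14139. Both are printed because later comparisons turn on them.
mt-Tl1: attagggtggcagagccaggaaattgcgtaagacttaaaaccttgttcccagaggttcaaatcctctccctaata
mt-Te: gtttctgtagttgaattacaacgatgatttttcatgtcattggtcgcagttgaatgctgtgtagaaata

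The first comparison asked how the untreated tumours of the models differed (n = 4 against n = 4). All 29 mt- genes that passed the filter on low counts had lower estimates in the controls titled 4T1 than in those titled MT, and 18 of them passed the test (edgeR quasi-likelihood test, Benjamini-Hochberg adjusted p under 0.05), all lower in 4T1. Of all 18956 genes tested, 51.9% were called, with 26.7% higher and 25.2% lower in 4T1. The calls took in 3 of 9 protein-coding members, both rRNAs and 13 of 18 tRNAs. Among minus-strand members, which are mt-Nd6 and tRNAs only, 8 of 8 were called, with a median log2 fold change of -2.3. Among plus-strand members 10 of 21 were called, with 6 of 11 tRNAs and 2 of 8 protein-coding members. Strand and kind of RNA are therefore mixed in these counts. The median over the 9 protein-coding members was -0.869, beside -0.00491 over all genes. The groups did not overlap for 11 of the 29, and the share of all genes without overlap was not computed.

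mt-Nd6 measured 369.7, 404, 221 and 372 CPM in the 4T1 controls and 1002, 552, 815 and 1196 CPM in the MT controls. Every 4T1 control lay below every MT control. The log2 fold change of mt-Nd6 was -1.38 ± 0.324 (SE), with an edgeR adjusted p of 0.000887. mt-Nd1 had 1520.3, 2289, 1334 and 1642 CPM in 4T1 and 3479.5, 2064, 4412 and 3514 CPM in MT, so 4T1 replicate 2 overlapped MT replicate 2. Its log2 fold change was -0.99 ± 0.372 (SE), with an edgeR adjusted p of 0.0284, and it was called in 27 of 31 fits that left out 1 library. mt-Nd3 also passed (log2 fold change -1.04, edgeR adjusted p of 0.0163). The other protein-coding members had negative estimates that did not pass: mt-Co1 -0.96 (95% interval -1.86 to -0.0639), mt-Nd2 -0.87 (-1.72 to -0.0219), mt-Nd5 -0.85 (-1.82 to 0.125), mt-Nd4 -0.70 (-1.56 to 0.157), mt-Cytb -0.65 (-1.47 to 0.175) and mt-Nd4l -0.50 (-1.59 to 0.587). DESeq2 and limma voom each called mt-Co1 and mt-Nd2 as well, and over all members they called 20 and 21.

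The rRNAs showed larger estimates than the protein-coding median. mt-Rnr1 measured 182, 212, 149 and 142 CPM in the 4T1 controls and 697, 285, 724 and 1328 CPM in the MT controls, without overlap. Its log2 fold change was -2.15 (95% interval -2.98 to -1.31), with an edgeR adjusted p of 9.83e-05. mt-Rnr2 measured 547, 690.2, 435 and 418 CPM in 4T1 and 1799, 586, 1596 and 2261 CPM in MT, and MT replicate 2 lay inside the 4T1 range. Its log2 fold change was -1.58 (95% interval -2.41 to -0.746), with an edgeR adjusted p of 0.00204. rRNAs and tRNAs carry no regular poly(A) tail, so in libraries of polyadenylated RNA their level also depends on how much such RNA was carried along. Tails were not measured for any member, mt-Nd6 included, so it is not known which messenger RNAs share this limit.

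The 5 members of smallest p were tRNAs, which carry amino acids to the mitochondrial ribosome, and 4 of these 5 lie on the minus strand. mt-Ti, the isoleucine tRNA of the plus strand, measured 1.67, 2.02, 1.22 and 2.73 CPM in 4T1 and 13.6, 6.38, 7.63 and 8.62 CPM in MT (log2 fold change -2.24 ± 0.373 SE, edgeR adjusted p of 1.93e-05). mt-Tq, the glutamine tRNA, measured 0.806, 1.53, 1.17 and 1.80 CPM in 4T1 and 7.65, 5.02, 11.99 and 4.72 CPM in MT (log2 fold change -2.47 ± 0.414 SE, edgeR adjusted p of 2.15e-05). mt-Te measured 22.2, 17.9, 10.4 and 25.8 CPM in 4T1 and 69.5, 44.9, 54.7 and 80.4 CPM in MT (log2 fold change -1.71 ± 0.297 SE, edgeR adjusted p of 3.41e-05). None of these 3 overlapped between the models. mt-Ta and mt-Tn, the alanine and asparagine tRNAs, lie next to each other on the minus strand at chrM:5018-5086 and chrM:5089-5159, and had log2 fold changes of -2.69 and -2.51 with edgeR adjusted p of 4e-05 and 5.52e-05. These are not 2 independent results: the counts of mt-Ta and mt-Tn differed by at most 28 in a library, over a range of 26 to 399 counts, and their sequences are printed because only 2 bases separate them on the chromosome.
mt-Ta: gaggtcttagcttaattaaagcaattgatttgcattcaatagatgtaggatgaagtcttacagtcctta
mt-Tn: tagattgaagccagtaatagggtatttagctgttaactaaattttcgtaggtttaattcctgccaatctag
The tRNA estimates ran from -2.78 to -0.18, and mt-Tv, mt-Tl1, mt-Tl2, mt-Ts2 and mt-Tr did not pass.

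**Figure D3:**
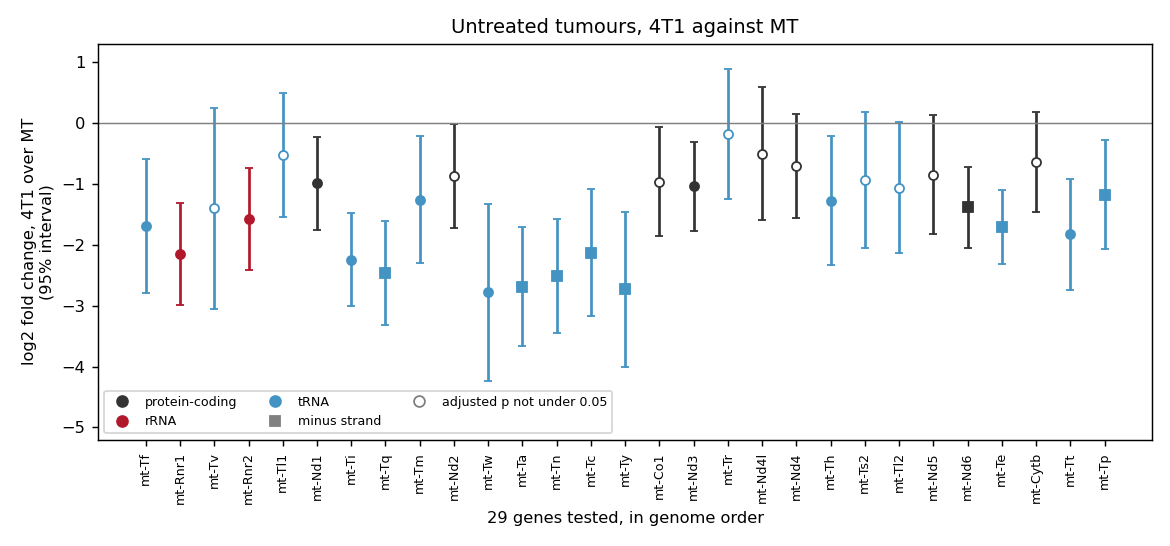
Log2 fold change of the 4T1 controls over the MT controls (vertical axis) with its 95% interval for the 29 mt- genes tested, in genome order; squares are minus-strand genes and open symbols did not pass the test. Every estimate lies below 0, and all 8 squares are filled.

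The difference between the models was uneven across the chromosome, which ratios within a library show without any scaling between libraries. Per kilobase and per 100 of mt-Cytb, mt-Nd6 stood at 38.6, 28.4, 31.9 and 38.7 in the 4T1 controls and at 57.6, 58.6, 42.6 and 69.9 in the MT controls, without overlap. Over all arms this ratio ran from 25.7 to 48.2 in the 15 libraries titled 4T1 and from 42.3 to 87.6 in the 16 titled MT, with overlap. mt-Rnr1 stood at 10.4, 8.09, 11.7 and 8.05 per 100 of mt-Cytb in the 4T1 controls and at 21.8, 16.5, 20.6 and 42.2 in the MT controls, again without overlap. Over all arms it ran from 8.05 to 20.5 in 4T1 and from 13.6 to 44.8 in MT, also with overlap. mt-Nd1 stood at 86.1 to 105 per 100 of mt-Cytb in the 4T1 controls and at 108 to 125 in the MT controls, and over all arms at 82.9 to 109.8 and 90.9 to 127.7, with overlap. mt-Co1 stood at 104 to 125 in the 4T1 controls and 129 to 157 in the MT controls, and overlapped over all arms (104 to 159 and 127 to 179). The control ratios of mt-Nd2, mt-Nd4, mt-Nd5, mt-Nd4l and mt-Rnr2 overlapped between the models. A ratio shows unequal change only, not which member changed. It does not remove differences in how much RNA without a regular poly(A) tail was carried along.

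**Figure D4:**
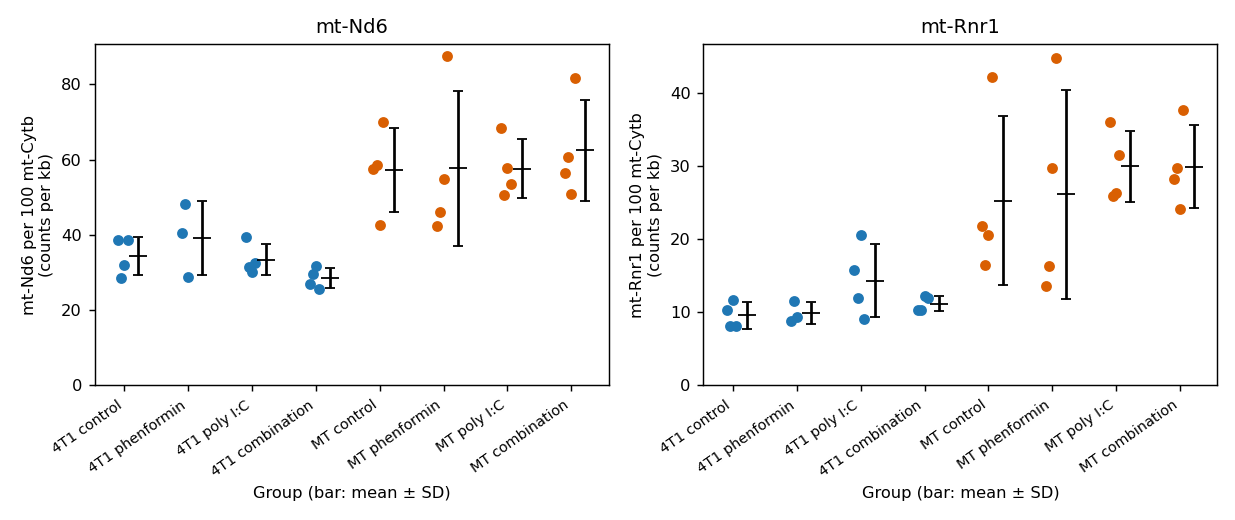
mt-Nd6 (left) and mt-Rnr1 (right) per 100 of mt-Cytb, from counts per kilobase (vertical axes), by library and group with mean ± SD. For mt-Nd6 the 4T1 controls lie between 28.4 and 38.7 and the MT controls between 42.6 and 69.9.

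Other measures moved with the same groups, and their part in the result was not tested. Marker levels are CPM on library totals. Malat1 and Neat1, long RNAs retained in the nucleus, summed to 391 to 829 CPM in the 4T1 controls and 814 to 5135 CPM in the MT controls. The 10 listed RNAs without a regular poly(A) tail, all detected, summed to 47.1 to 57.2 CPM in 4T1 and 49.8 to 139 CPM in MT. The 8 fibroblast markers, all detected, summed to 3174 to 4786 CPM in 4T1 and 612 to 1089 CPM in MT, and the 8 macrophage markers, all detected, to 2822 to 4450.0 CPM and 568 to 749 CPM. Of 15 skeletal muscle markers, which mark a tissue rich in mitochondria, all were detected in 4T1 (90.9 to 146 CPM) and 14 in MT (6.08 to 24.8 CPM, with Myl1 at 0). Sox10, a neural crest and myoepithelial factor, measured 168 to 211 CPM in MT control replicates 1 to 3 and 1.32 CPM in replicate 4, whereas Krt5, a basal keratin, stood at 20.7 to 28.97 CPM in replicates 1 to 3 and 2223 CPM in replicate 4. The model, the host strain and the cell line cannot be told apart.

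Nuclear genes that build the same complexes were mostly lower in 4T1 too, while 25.2% of all genes tested were lower. Of the nuclear complex I subunits 30 of 36 were lower and 2 higher, beside 3 of 7 mt- members lower. For complex III 8 of 9 nuclear subunits were lower beside 0 of 1 mt- member, for complex IV 9 of 11 beside 0 of 1 tested, and for complex V 15 of 17, with no mt- member tested. Their median log2 fold changes were -0.806, -0.721, -0.715 and -0.732. Ndufa5 and Ndufb3, accessory subunits of complex I, fell by 1.39 and 1.19 on the log2 scale (edgeR adjusted p of 8.15e-10 and 1.04e-09), Atp5h of the ATP synthase by 2.08 (edgeR adjusted p of 4.98e-11). Ndufs5 went the other way, at 8.75 CPM in 4T1 and 0.884 CPM in MT (edgeR adjusted p of 8.42e-10). Of the proteins of the mitochondrial ribosome 47 of 76 were lower and 2 higher (median -0.408), with Mrps7 at a log2 fold change of -2.15 (edgeR adjusted p of 1.28e-10).

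Genes that transcribe and copy mitochondrial DNA changed in both directions. Those for RNA processing and for chaperones and proteases were more often lower than higher in 4T1. These counts stand beside 26.7% higher and 25.2% lower over all genes tested, and no list was tested as a set. Of 10 measured transcription genes 3 were higher and 1 lower in 4T1, with a median of 0.0131. Tfb2m, a factor that opens the promoter for the mitochondrial polymerase, was higher in 4T1 (22.6 ± 1.97 against 13.8 ± 1.42 CPM, edgeR adjusted p of 0.000705), and Top1mt, the mitochondrial topoisomerase, was lower (9.77 ± 0.136 against 20.6 ± 2.23 CPM, edgeR adjusted p of 8.66e-06). Of 15 genes of DNA maintenance 5 were higher and 2 lower (median 0.188), among them Mpv17 at 39.2 ± 1.43 against 20.2 ± 3.44 CPM (edgeR adjusted p of 1.42e-06). Of 24 genes of RNA processing and decay 2 were higher and 9 lower (median -0.216). Rexo2, an exonuclease that degrades short RNAs, had 58.0 ± 5.79 against 111 ± 19.4 CPM (edgeR adjusted p of 6.52e-05), and Slirp, which stabilises mitochondrial messenger RNAs, 101 ± 6.84 against 143 ± 6.18 CPM (edgeR adjusted p of 0.00012). Of 10 biogenesis regulators 2 were higher and 1 lower. The lower one was Ppargc1a, the coactivator PGC-1alpha, at 0.423 ± 0.127 against 8.12 ± 5.72 CPM (edgeR adjusted p of 3.81e-06). Of 14 chaperones and proteases 1 was higher and 8 lower (median -0.411).

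In the 4T1 model, no mt- gene passed the test in any comparison of arms. Against control, the 95% intervals of the protein-coding members reached from -0.715 to 0.878 over the 3 arms, so changes within them are not excluded. Phenformin against control (n = 3 against n = 4) had 0 of 27 mt- genes called, in a comparison where 0% of all 17445 genes were called. All 9 protein-coding estimates were above 0, with a median log2 fold change of 0.235, and their 95% intervals reached from -0.494 to 0.878. mt-Nd1 was estimated at 0.32 (95% interval -0.171 to 0.820) and mt-Nd5 at 0.31 (-0.248 to 0.873), both subunits of the complex that phenformin inhibits. 2 of the 27 had an unadjusted p under 0.05, and DESeq2 and limma voom also called 0. The smallest p belonged to mt-Tl1. It measured 25.5, 41.5, 19.9 and 28.8 CPM in the 4T1 controls and 43.8, 54.4 and 64.8 CPM under phenformin, and the groups did not overlap. Its log2 fold change was 0.90 (95% interval 0.193 to 1.61), which did not pass (edgeR adjusted p of 0.381). The 10 RNAs without a regular poly(A) tail summed to 47.1 to 57.2 CPM in these controls and 58.6 to 109 CPM under phenformin, also without overlap, and their part in the mt-Tl1 values was not tested.

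Poly I:C against control in 4T1 (n = 4 against n = 4) had 0 of 27 mt- genes called, while 6.32% of all genes were called. The protein-coding median was -0.153, with 95% intervals reaching from -0.715 to 0.722, and both rRNA estimates were above 0 (mt-Rnr1 0.55, 95% interval -0.0956 to 1.19). 2 of the 27 had an unadjusted p under 0.05, and DESeq2 and limma voom also called 0. The smallest p was that of mt-Ta, at 0.92 ± 0.411 (SE) on the log2 scale with an edgeR adjusted p of 0.189. The count of 0 rested on single libraries: without 4T1 poly I:C replicate 4 it became 3, and without replicate 1 it became 1. Of all 17445 genes tested, 534 were lower. Beside that, 1 of 10 transcription genes was lower (Tfb2m, 16.5 ± 1.05 against 22.6 ± 1.97 CPM, edgeR adjusted p of 0.0284). So were 1 of 36 nuclear complex I subunits (Ndufb11) and 3 of 76 mitochondrial ribosomal proteins.

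The combination in 4T1 (n = 4) also had 0 of 27 mt- genes called against control, where 0% of all genes were called. Its protein-coding median was 0.0977, with 95% intervals from -0.610 to 0.807. No member had an unadjusted p under 0.05, and DESeq2 and limma voom called 0. The smallest p was that of mt-Tm, the methionine tRNA, at 0.45 ± 0.294 (SE, edgeR adjusted p of 0.587). Against poly I:C alone, 0 of 27 were called by edgeR and by DESeq2 and 1 by limma voom, with 2 at an unadjusted p under 0.05 and 0.246% of all genes called. mt-Tm measured 5.39, 4.29, 4.41 and 3.66 CPM in the combination and 3.57, 1.503, 1.60 and 2.65 CPM under poly I:C, without overlap (log2 fold change 0.93 ± 0.299 SE, edgeR adjusted p of 0.126). Leaving out 4T1 poly I:C replicate 4 brought the count from 0 to 1. Against phenformin alone, 0 of 27 were called by edgeR and by limma voom and 1 by DESeq2, with 1 at an unadjusted p under 0.05 and 0% of all genes called. mt-Tl1 measured 25.7, 18.2, 30.8 and 18.2 CPM in the combination, below the 43.8 to 64.8 CPM of the phenformin libraries. The log2 fold change of mt-Tl1 was -1.21 (95% interval -1.92 to -0.494), with an edgeR adjusted p of 0.223 and a DESeq2 adjusted p of 0.0387. The interaction of both agents called 0 of 27 by all 3 tools, with 2 at an unadjusted p under 0.05 and 0% of all genes called. Its protein-coding median was -0.0647, and the smallest p was that of mt-Ta (-1.56 ± 0.597 SE, edgeR adjusted p of 0.505).

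In the MT model the libraries of an arm differed more, and the intervals were wider. Phenformin against control (n = 4 against n = 4) had 0 of 28 mt- genes called by edgeR, DESeq2 and limma voom, none at an unadjusted p under 0.05, with 0% of all 17857 genes called. The protein-coding estimates were all above 0, with a median log2 fold change of 0.709 and 95% intervals reaching from -0.474 to 2.37. mt-Nd5 measured 1565, 674, 1978 and 1374 CPM in the controls and 5268, 2874, 2277 and 786 CPM under phenformin. Phenformin replicates 1 to 3 lay above all controls, and replicate 4 lay among them. The log2 fold change of mt-Nd5 was 1.01 (95% interval -0.248 to 2.27), with an edgeR adjusted p of 0.832. mt-Co1 measured 6695, 3852, 7966 and 8006 CPM in the controls and 18589, 12518, 11239 and 3560.4 CPM under phenformin. Replicates 1 to 3 again lay above all controls, and replicate 4 lay below them. mt-Te had the smallest p (0.60 ± 0.283 SE, edgeR adjusted p of 0.813), at 69.5, 44.9, 54.7 and 80.4 CPM in the controls and 116, 82.0, 91.9 and 83.7 CPM under phenformin, without overlap.

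Within the MT phenformin arm, the library with the lowest Sox10 also had the lowest share of mt- counts. Sox10 measured 188, 185 and 34.4 CPM in phenformin replicates 1 to 3 and 2.82 CPM in replicate 4. Krt5 gave another grouping, at 36.2 and 32.0 CPM in phenformin replicates 1 and 2, 1653 CPM in replicate 3 and 1120 CPM in replicate 4. By Krt5, replicate 3 stood with replicate 4, although its share of mt- counts was 3.80%. Across the MT libraries given poly I:C, with or without phenformin, Sox10 lay between 0.699 and 3.19 CPM. The share of counts in mt- genes was 6.13%, 4.11% and 3.80% in the 3 phenformin libraries with Sox10 above 10 CPM and 2.51%, 1.33% and 2.91% in the 3 such controls, and it was 1.63% in the remaining phenformin library and 2.73% in the remaining control. The controls therefore did not follow the order seen under phenformin, and the shares of the poly I:C (1.61% to 4.50%) and combination (0.697% to 3.03%) libraries varied although Sox10 was low in all of them. A fit without the libraries with Sox10 above 10 CPM kept 1 control and 1 phenformin library, which were assumed to vary like the other groups, and it turned the protein-coding median from 0.709 to -0.760.

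Poly I:C against control in MT (n = 4 against n = 4) lowered 1 of 28 mt- genes, mt-Ti, while 19.6% of all genes were called and 11.1% were lower. mt-Ti measured 13.6, 6.38, 7.63 and 8.62 CPM in the controls and 2.86, 6.29, 4.31 and 2.95 CPM under poly I:C. The groups did not overlap, but poly I:C replicate 2 lay within 0.1 CPM of control replicate 2. The log2 fold change of mt-Ti was -1.12 (95% interval -1.85 to -0.391), with an edgeR adjusted p of 0.0339. The call was lost without control replicate 1 or 3 or poly I:C replicate 1, 3 or 4, with edgeR adjusted p between 0.0527 and 0.116. It was also lost without the libraries with Sox10 above 10 CPM, a fit that kept 1 control and gave a log2 fold change of -1.04 (edgeR adjusted p of 0.441). With a Krt5 over Sox10 log-ratio covariate the log2 fold change was -0.83 (edgeR adjusted p of 0.229). The 9 protein-coding members had a median of -0.176 and 95% intervals reaching from -1.498 to 1.66. mt-Nd1 measured 1779, 4856, 2000.4 and 1775 CPM under poly I:C, and mt-Cytb 2100.5, 5454, 2170.2 and 2144 CPM. For both, replicate 2 stood far above the other 3, which lay at or below the lowest control of mt-Nd1 (2064 CPM) and near that of mt-Cytb (2079 CPM).

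Nuclear subunits of the same complexes were lower in many cases in this comparison, in which 11.1% of all genes were lower. The groups also differed in Sox10 and Krt5. Sox10 measured 168 to 211 CPM in control replicates 1 to 3, 1.32 CPM in control replicate 4 and 0.853 to 2.455 CPM under poly I:C. Krt5 measured 20.7 to 28.97, 2223 and 1419 to 2535 CPM in the same order. Their part in the fall of the nuclear subunits was not tested. Of the nuclear complex I subunits 25 of 36 fell and 0 rose, with a median of -0.499, beside 0 of 7 mt- members called and a median of -0.175. In complex III 4 of 9 nuclear subunits fell, in complex IV 3 of 11 and in complex V 8 of 16, with medians of -0.306, -0.317 and -0.471. Ndufa2, an accessory subunit of complex I, had 44.2 ± 7.49 CPM under poly I:C and 87.4 ± 13.5 CPM in control (edgeR adjusted p of 0.00163), and Cox4i1 of complex IV 258 ± 25.6 and 427 ± 61.2 CPM (edgeR adjusted p of 0.00268). Mitochondrial ribosomal proteins fell in 37 of 76 cases (median -0.377), among them Mrpl24 (66.5 ± 5.31 against 107 ± 9.27 CPM, edgeR adjusted p of 0.00117). Of RNA processing genes 4 of 24 fell and 1 rose, and of the transcription genes 0 of 10 were called. Grsf1, which binds RNA in mitochondrial RNA granules, had a log2 fold change of -0.86 ± 0.244 (SE, edgeR adjusted p of 0.0258). Whether nuclear and mt- subunits differed from each other was not tested, and the interval of each tested mt- subunit includes the median of the nuclear subunits of its complex. Beside these groups, the 8 macrophage markers summed to 568 to 749 CPM in control and 2064 to 2727 CPM under poly I:C, and the 5 erythroid markers to 73.3 to 308 and 465 to 1625 CPM, with all listed genes of both detected. The 10 RNAs without a regular poly(A) tail, all detected, summed to 49.8 to 139 CPM in control and 31.99 to 39.3 CPM under poly I:C, without overlap. Of the 7 that were tested 3 were lower and 0 higher, with a median of -1.48. The part of these markers in the fall of mt-Ti and of the nuclear subunits was not tested.

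The combination in MT (n = 4) had 0 of 28 mt- genes called against control by edgeR and by DESeq2 and 1 by limma voom, with 2 at an unadjusted p under 0.05 and 6.14% of all genes called. The protein-coding median was -0.287, with 95% intervals from -1.74 to 1.27. mt-Ti again had the smallest p, with 4.33, 6.93, 6.35 and 2.93 CPM in the combination (log2 fold change -0.81 ± 0.338 SE, edgeR adjusted p of 0.132). The RNAs without a regular poly(A) tail summed to 31.7 to 44.7 CPM in the combination, below all control and all phenformin libraries of MT (45.7 CPM or more), and their part was not tested. Against control, 595 of all 17857 genes tested were lower in the combination. Nuclear complex I subunits were lower in 3 of 36 cases (Ndufb3, Ndufa3 and Ndufa2), and ribosomal proteins in 8 of 76. Sox10 measured 0.699 to 3.19 CPM in the combination, and its part in the fall of these genes was not tested. Against poly I:C alone 0 of 28 were called by all 3 tools, none at an unadjusted p under 0.05, and 0% of all genes were called. The protein-coding median was -0.118, and mt-Tt had the smallest p (0.59 ± 0.404 SE, edgeR adjusted p of 0.851).

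Against phenformin alone, the combination had lower estimates for all 9 protein-coding members in MT, with a median of -0.974 and 95% intervals from -2.71 to 0.274. Of 28 members edgeR called 0, DESeq2 2 and limma voom 6, with 7 at an unadjusted p under 0.05 and 0.106% of all genes called by edgeR. mt-Ti had the smallest p, at 14.99, 14.2, 11.99 and 8.39 CPM under phenformin, all above the combination (log2 fold change -1.28 ± 0.340 SE, edgeR adjusted p of 0.235). DESeq2 gave mt-Ti an adjusted p of 0.0268 and limma voom one of 0.00999. mt-Nd4 measured 9258, 5886, 4341 and 1852 CPM under phenformin and 2474, 2939.9, 3522 and 767 CPM in the combination. Phenformin replicate 4, with low Sox10, lay among the combination libraries. Without the libraries with Sox10 above 10 CPM, which left 1 phenformin library, the protein-coding median turned from -0.974 to 0.449. The interaction of both agents in MT called 0 of 28 by all 3 tools, none at an unadjusted p under 0.05, with 0% of all genes called. Its protein-coding median was -0.766, and mt-Nd5 had the smallest p (-1.39, 95% interval -3.16 to 0.380, edgeR adjusted p of 0.603). The comparisons with control, with poly I:C and with phenformin share libraries, so their values are not independent.

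**Figure D5:**
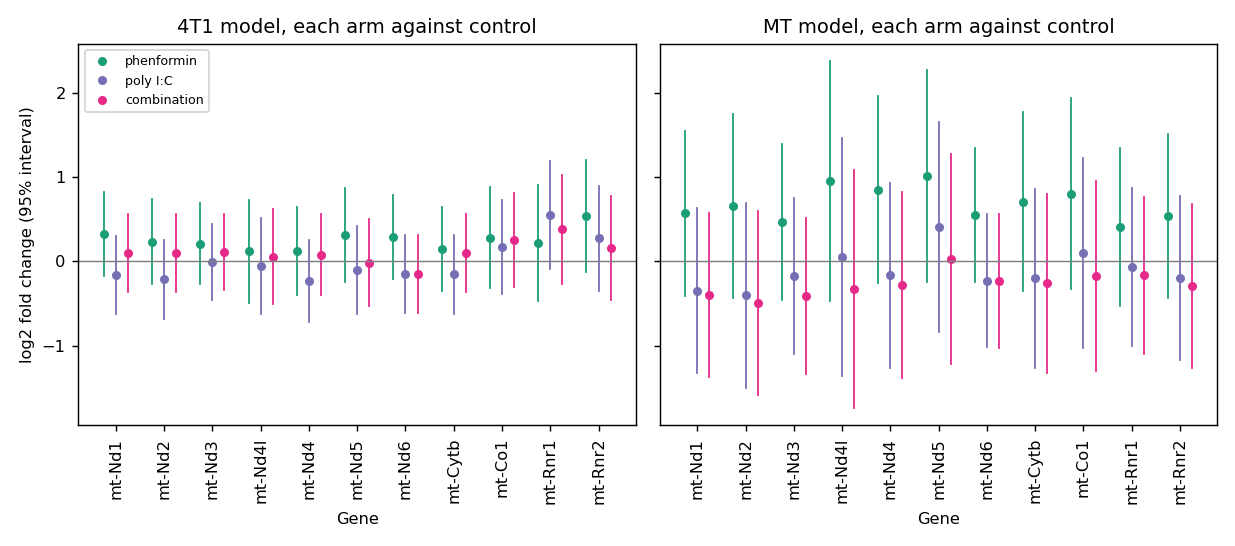
Log2 fold change of each arm against control with its 95% interval (vertical axis) for the 9 protein-coding members and 2 rRNAs that passed the filter, in 4T1 (left) and MT (right). Every interval includes 0, and the MT phenformin estimates lie above 0 with a median of 0.709 for the protein-coding members.

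Whether the models responded differently was tested in the joint fit of all 31 libraries. For poly I:C, 0 of 29 mt- genes differed by edgeR and DESeq2 and 3 by limma voom, with 2 at an unadjusted p under 0.05 and 11.1% of all genes called. The difference for mt-Ti was 1.25 (4T1 minus MT, log2 scale, 95% interval 0.192 to 2.299), with an edgeR adjusted p of 0.115. Without 4T1 poly I:C replicate 4 it passed, with an edgeR adjusted p of 0.0495. The protein-coding median difference was 0.0724. Among nuclear complex I subunits 11 of 36 differed, all with the higher log2 fold change in 4T1, while 5.7% of all genes differed in that direction (1080 of 2108 called, or 713 of 1987 when scaled by library totals). The MT controls and MT poly I:C libraries also differed in Sox10 and Krt5, whose part in the nuclear result was not tested. For phenformin, 0 of 29 differed by all 3 tools, none at an unadjusted p under 0.05, with 0% of all genes called. The protein-coding median difference was -0.510, and mt-Ta had the smallest p (1.23 ± 0.656 SE, edgeR adjusted p of 0.722). For the combination, 0 of 29 differed by edgeR and DESeq2 and 2 by limma voom, with 1 at an unadjusted p under 0.05 and 4.56% of all genes called. The smallest p was that of mt-Tm (1.58 ± 0.714 SE, edgeR adjusted p of 0.165), and the protein-coding median was 0.376. The protein-coding intervals reached from -1.86 to 1.44 for poly I:C and from -2.43 to 0.888 for phenformin, with SEs of 0.450 to 0.745 and of 0.468 to 0.780.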

How the data were processed

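The authors deposited raw counts of reads per gene. Per the submitters' processing notes, Trimmomatic 0.32.48, STAR 2.3.0, featureCounts 1.4.4 and the mm10 (GRCm38) genome were used; roles, annotation release, strand setting and treatment of reads with several alignments are not given in the sources used here. Members and gene lists were chosen with earlier results of these data known. Low counts were removed by filterByExpr at a minimum count of 10 and a minimum total of 15. This passed 27 mt- genes in 4T1, 28 in MT and 29 in the joint fit, with 9 protein-coding members and both rRNAs in each. They were tested with the edgeR 4.0.16 quasi-likelihood test on TMM-scaled libraries in R 4.3.3, in 1 fit per model and 1 joint fit of 8 groups, with Benjamini-Hochberg adjustment over all genes. The 8 members from mt-Ts1 to mt-Tg, 4 of them protein-coding, passed no filter and have no test. The SE was taken as |log2 fold change| over the root of the F statistic. The 95% intervals use it and are missing where F was under 0.001. CPM of members and of nuclear genes of the mitochondrial lists use the joint TMM factors, whereas CPM of cell type and RNA markers (Sox10 and Krt5 included) use library totals, and shares are percent of a library's total count. Older symbols of some listed genes were added after the data were seen. Full statistics go to at most 5 called members of smallest p per comparison, or otherwise to the member of smallest p; from nuclear lists at most 3 called genes are named. Alternatives were DESeq2 1.42.0, its size factors, library totals, scaling without mt- genes, other filters, the replicate block, only the groups compared, limma voom (limma 3.58.1), leaving out each library, and leaving out libraries by Acta1, Igkc or Sox10. Copies were sought with 50-base windows and BLAST in GENCODE M21 transcripts. Only the main edgeR setting was tried on simulated counts, for the 4T1 libraries and the comparison of poly I:C against control. The MT fit, the joint fit and the alternatives were not simulated.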

Additional observations from a re-analysis of the deposited data

Results flagged for a closer look

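In groups of 4 libraries, 119 combinations of group and quantity were looked at for 1 library far from the other 3 by Dixon's gap test, which chance passes in about 1 in 20 groups. This picked out 12 values in 3 libraries. MT poly I:C replicate 2 stood above the other 3 libraries of its group in 8 of them: the share of counts in mt- genes was 4.50% against 1.61% to 1.74%, mt-Nd1 4856 CPM against 1775 to 2000.4, mt-Nd2 2980 CPM against 1073 to 1179, mt-Co1 13163 CPM against 4728 to 5171, mt-Nd4l 1314 CPM against 387 to 474, mt-Nd4 4924 CPM against 1693 to 1970.1, mt-Nd5 3487 CPM against 1212 to 1338, and mt-Cytb 5454 CPM against 2100.5 to 2170.2. These 8 values come from the same library and are not independent. In 4T1 control replicate 2, mt-Nd4l measured 756 CPM against 338 to 381 and mt-Nd5 1174 CPM against 617 to 676. In 4T1 poly I:C replicate 1, mt-Tl1 measured 36.9 CPM against 12.99 to 15.3 and mt-Nd5 1171 CPM against 527 to 637.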

How the results depend on the processing

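The number of mt- genes called was recomputed for each of 16 comparisons. For the controls, 4T1 against MT, the count of 18 ran from 14 to 21 over 11 settings and from 14 to 20 when each library was left out. mt-Nd6, mt-Rnr1 and mt-Rnr2 were called in each of these fits. For MT poly I:C against control the count of 1 became 2 with DESeq2, 6 with limma voom, and 0 with library totals, with no filter on low counts, without the libraries with Sox10 above 10 CPM and with the Krt5 to Sox10 covariate, and it ran from 0 to 2 when single libraries were left out. For 4T1 poly I:C against control it ran from 0 to 3 when single libraries were left out, and for 4T1 combination against poly I:C and the poly I:C response between models from 0 to 1. Counts of 0 became 1 with limma voom for 4T1 combination against poly I:C and MT combination against control, 1 with DESeq2 for 4T1 combination against phenformin, 2 with DESeq2 and 6 with limma voom for MT combination against phenformin, and 3 and 2 with limma voom for the poly I:C and combination responses between models. The estimate for mt-Nd5 in the MT interaction reversed from -1.39 to 0.386 without the libraries with Sox10 above 10 CPM. The cause was not tested. The median correlation of same-numbered libraries was -0.0543 in 4T1 and 0.103 in MT, against 0.0396 and 0.0039 for different numbers. Single same-numbered pairs ranged from -0.506 to 0.208 in 4T1 and from -0.806 to 0.78 in MT. Medians over pairs that vary this much cannot show whether the numbers mark pairs or batches. With the replicate block the counts were 18 for the controls, 1 for MT poly I:C against control and 0 in the other 14 comparisons. Scaling by library totals moved the median of all genes by over 0.1 only in the poly I:C and combination responses between models (shifts of -0.119 and -0.128), where the genes higher in 4T1 went from 1080 of 2108 called to 713 of 1987 and from 429 of 864 to 283 of 868. Low counts limit the tRNAs most.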

Other observations

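Within the mt- messenger RNAs of MT, the composition differed between the arms in a way that the tests of single genes do not show. Per kilobase and per 100 of mt-Cytb, mt-Nd5 stood at 25.6, 20.3, 29.4 and 22.9 in the controls and at 36.2, 40.1, 38.7 and 36.6 under poly I:C, without overlap. In the combination it stood at 34.8, 28.6, 30.99 and 25.7, and under phenformin at 36.6, 29.6, 26.7 and 23.7. mt-Co1 stood at 129, 137, 139.9 and 157 in the controls and at 167, 179, 168 and 179 under poly I:C, again without overlap, and this includes the library of MT poly I:C that stood apart in level. In 4T1 the same ratios overlapped, with mt-Nd5 at 18.3 to 26.5 in the controls and 18.4 to 28.0 under poly I:C, and mt-Co1 at 104 to 125 and 118 to 159. These ratios were chosen after their values were seen, and no test was made.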
